A study of Mus musculus with 12 samples.

Results

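Translation initiation and elongation factors were examined as a family, taken as every gene whose symbol in the probe set annotation starts with Eif or Eef. On the arrays 59 such genes of 18193 had a probe set with no other gene symbol, and 53 of them passed the filter, a log2 value above 5 in 3 or more arrays, as did 9120 genes in all. The members were compared in CD11b+ cells, labelled as microglia, sorted from the hippocampus of female mice of 2 inbred strains. The mice formed 4 groups of 3, with 1 array per mouse: irradiated Balb/c, sham Balb/c, irradiated C57BL/6 and sham C57BL/6. Irradiated mice received a single X-ray dose of 10 Gy through a 1 cm field over the forebrain at 6.5 weeks of age, and sham mice were not given the dose. All mice were analysed 1 month later, at 10.5 weeks. Each array held RNA from 5000 to 10000 cells of 1 animal, amplified in 2 rounds. No group carries an engineered allele, and CD11b is an integrin that monocytes, macrophages and neutrophils carry as well as microglia.

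Protein synthesis starts when initiation factors bring the initiator tRNA and the small ribosomal subunit to the capped end of an mRNA. The eIF4 factors read the cap, eIF2 carries the initiator tRNA, eIF3 holds the complex together, and eIF5 and eIF5B let the large subunit join. Elongation then runs on eEF1, which delivers charged tRNAs, and eEF2, which moves the ribosome along. The main brakes on the system are kinases of eIF2, the 4E-binding proteins that occupy eIF4E, and the eEF2 kinase, which cells use to answer interferon, nutrient shortage or stress.

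The promoters of 3 members are shown because results below turn on them: Eef2 and its kinase Eef2k, which were both lower in irradiated mice, and Eif2ak2, which differed between the strains in sham mice. Each run covers 100 bases before the annotated start and 30 bases from it, so base 101 is the start, 5′ to 3′ on the gene's strand, from RefSeq on GRCm38.p6. Capitals mark a cyclic AMP response element (TGACGTCA) in Eef2 and an interferon response element (GAAA, any 2 bases, GAAA) in Eif2ak2.
Eef2, chr10:81176531-81176660, plus strand: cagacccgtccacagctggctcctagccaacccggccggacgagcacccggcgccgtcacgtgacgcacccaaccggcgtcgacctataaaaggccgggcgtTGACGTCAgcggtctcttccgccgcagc
Eef2k, chr7:120842731-120842860, plus strand: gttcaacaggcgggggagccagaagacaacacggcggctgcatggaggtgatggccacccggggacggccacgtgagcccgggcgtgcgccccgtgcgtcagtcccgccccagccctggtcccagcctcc
Eif2ak2, chr17:78882543-78882672, minus strand: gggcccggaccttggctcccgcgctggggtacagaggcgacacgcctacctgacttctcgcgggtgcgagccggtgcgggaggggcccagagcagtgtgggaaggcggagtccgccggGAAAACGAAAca
Both motifs were searched on both strands of windows of 300 bases (250 before and 50 from the start), which were at hand for 48 members. TGACGTCA stood in 1.79% of all 32851 windows, in 2.03% of 27025 genes and in 1 of the 48 members, Eef2, where its first base is base 3 from the start. The interferon response element stood in 3.44% of all windows, in 3.99% of genes and in 3 of the 48 members, Eif2ak2, Eif3a and Eif2s3x. RefSeq annotates 3 starts of Eef2k, of which the one shown is the first in the table. A match is a description of these letters only.

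The cells carried the microglial markers that the label calls for, but oligodendrocyte transcripts were high as well. Of 12 listed microglial genes 11 were on the arrays and all 11 passed the filter. Their summed level on the log2 scale ran from 17.2 to 17.4 in all 4 groups, but single markers differed. After irradiation 7 of the 11 were lower and 4 higher in each strain. The differences ran from -1.02 to 0.23 in Balb/c mice and from -0.41 to 0.21 in C57BL/6 mice. Trem2 averaged 10.59 in irradiated and 11.61 in sham Balb/c mice. Balb/c mice were lower than C57BL/6 mice for 4 of the 11 in sham and 5 in irradiated mice. One of these, Fcrls, averaged 13.1 against 14.3 in sham and 13.3 against 14.6 in irradiated mice. The summed levels of several other lists separated irradiated from sham mice in one or both strains. The summed level of 6 border-associated macrophage markers was 13.44 to 13.75 in irradiated and 12.80 to 13.03 in sham Balb/c mice, and 14.2 to 14.5 in irradiated and 13.2 to 14.3 in sham C57BL/6 mice. Monocyte markers (5 of 6 passed the filter) summed to 10.5 to 11.1 in irradiated and 9.62 to 9.95 in sham Balb/c mice, and to 10.9 to 11.2 in irradiated and 8.99 to 9.97 in sham C57BL/6 mice. Neutrophil markers (4 of 5 passed) summed to 9.72 to 11.8 in irradiated and 6.63 to 7.23 in sham Balb/c mice, whereas the C57BL/6 groups overlapped. Astrocyte markers (6 of 6 passed) summed to 14.41 to 14.98 in irradiated and 13.5 to 14.0 in sham Balb/c mice, and to 14.1 to 14.6 in irradiated and 13.3 to 13.9 in sham C57BL/6 mice. Cell cycle genes (4 of 5 passed) summed to 9.06 to 9.67 in irradiated and 8.80 to 9.25 in sham Balb/c mice, and to 9.89 to 10.27 in irradiated and 7.69 to 8.05 in sham C57BL/6 mice. Endothelial markers (2 of 4 passed) summed to 10.41 to 11.02 in irradiated and 9.49 to 10.29 in sham Balb/c mice, and overlapped in C57BL/6 mice. T and NK cell markers (1 of 5 passed, Gzma) summed to 4.64 to 8.27 in irradiated and 4.60 to 4.65 in sham Balb/c mice, and to 7.71 to 8.64 in irradiated and 5.79 to 7.14 in sham C57BL/6 mice. B cell markers (1 of 3 passed, Cd79b) separated the strains, at 5.22 to 5.99 in all Balb/c and 7.11 to 8.07 in all C57BL/6 arrays. Of these lists Cd3e, Cd3g, Cd8a, Nkg7, Cd79a and Pecam1 lay at the bottom of the scale in all arrays. Oligodendrocyte markers (4 of 4 passed) summed to 14.95 to 15.77 over all Balb/c arrays and 15.48 to 15.92 over all C57BL/6 arrays. In each group this list was the highest after microglia. Group means ran from 15.02 to 15.31 for Mbp and from 13.94 to 14.18 for P2ry12. Neuron markers (4 of 4 passed) summed to 8.95 to 10.14 in Balb/c and 8.79 to 10.20 in C57BL/6 arrays. Both lists overlapped between irradiated and sham mice in each strain. The probe sets for 18S ribosomal RNA read lower in irradiated than in sham mice by 0.74 on average (irradiated minus sham -0.74, exact two-sided permutation p = 0.005, the smallest that 400 arrangements within strains can give). The 3′ minus 5′ signal of Actb and Gapdh, a measure of how far RNA or its copies are shortened, was 4.25 ± 0.56 in irradiated and 3.69 ± 0.14 in sham Balb/c mice, and 3.63 ± 0.12 in irradiated and 3.64 ± 0.13 in sham C57BL/6 mice (SD, n = 3 each). Balb/c irradiated replicate 2 had the highest value, 4.82, and C57BL/6 irradiated replicate 3 correlated least with its group, so calls that were lost without both are named as such. The part of these shifts in the results below was not tested unless a value is given. In sorted bulk RNA, fewer cells of a type and less RNA per cell cannot be told apart.

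Few of the translation factors were called for irradiation. A call was an adjusted p under 0.05 in limma (Benjamini-Hochberg over all 9120 genes). In Balb/c mice 1 of 53 members was called, Eef2, which fell, against 6.15% of all genes (2.89% lower). In C57BL/6 mice 0 of 53 were called, where 3.67% of all genes were. In the average of both strains 3 were called, Eef2 and Eef2k lower and Eif4e2 higher, against 15.9% of all genes (8.15% lower and 7.72% higher). With no adjustment, p was under 0.05 for 11 members in Balb/c mice, 6 in C57BL/6 mice and 8 in the average, where the shares of all genes were 22.8%, 21.3% and 31.7%. The arrays of the compared groups did not overlap for 16 members in Balb/c mice (29.2% of all genes), for 13 in C57BL/6 mice (26.5%) and within both strains for 4 (10.4%). Of the 16 in Balb/c mice, 12 were lower (16.3% of all genes) and 4 higher (12.8%). The differences of the members were small: they lay between -0.66 and 0.53 in Balb/c mice and between -0.46 and 0.52 in C57BL/6 mice, and 50 and 51 of the 53 were nearer to 0 than 0.5. The median member differed by -0.14 in Balb/c mice and 0.00 in C57BL/6 mice, beside a median of -0.04 over all genes in each strain. The members also varied less between mice of a group than most genes, with a median pooled SD of 0.17 against 0.22 for all genes tested.

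**Figure D1:**
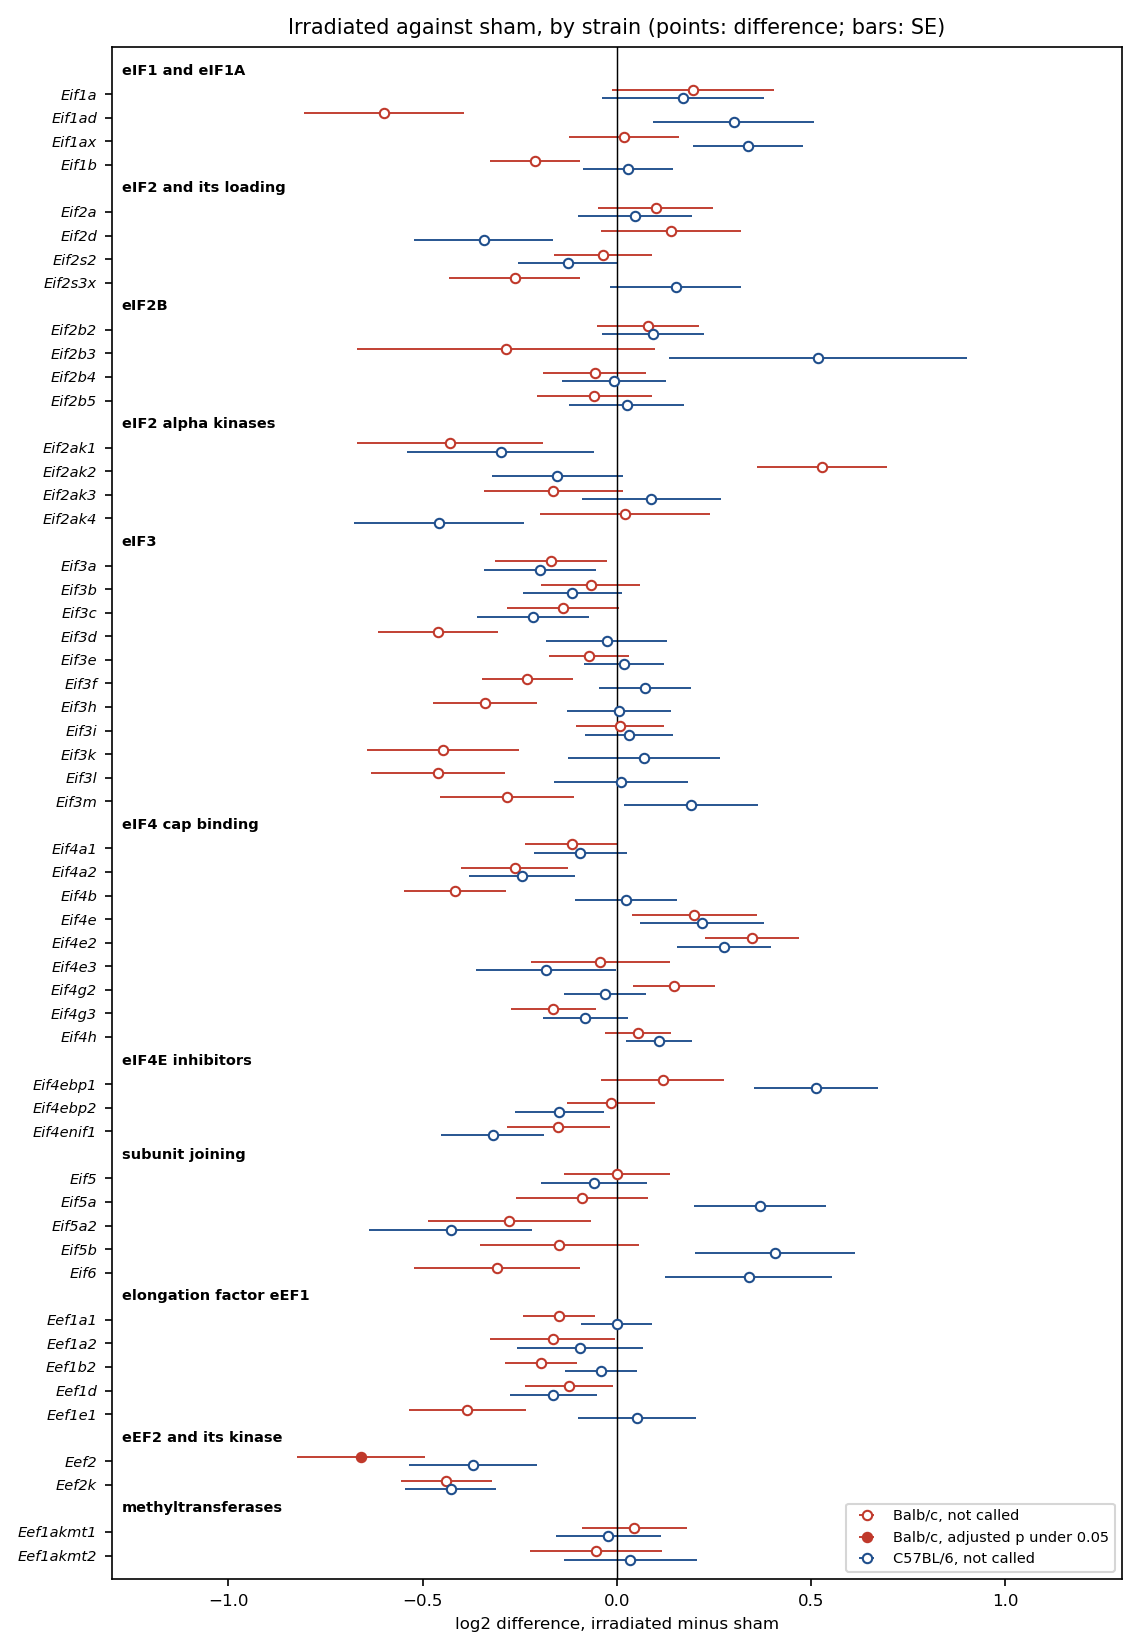
Log2 difference of irradiated minus sham mice for the 53 members that passed the filter, grouped by role, with Balb/c in red and C57BL/6 in blue; bars are standard errors from limma. Filled points passed an adjusted p of 0.05, which only Eef2 in Balb/c mice did.

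The elongation factor eEF2 and the kinase that acts on it were the members that changed most clearly. Eef2 encodes the GTPase that moves the ribosome by a codon after each peptide bond. It read 11.79, 11.27 and 11.47 in irradiated Balb/c mice, against 12.22, 12.39 and 11.89 in sham Balb/c mice. It read 11.57, 11.57 and 11.36 in irradiated C57BL/6 mice, against 12.00, 11.87 and 11.75 in sham C57BL/6 mice. In both strains every irradiated array lay below every sham array of that strain. Eef2 fell by 0.66 (SE 0.16, adjusted p = 0.0414) in Balb/c mice, a change of -36.6% on the linear scale. The difference in C57BL/6 mice was -0.37 (SE 0.16, adjusted p = 0.225, 95% interval -0.73 to -0.01), and the average over strains was -0.51 (SE 0.12, adjusted p = 0.0155). The difference in response between the strains did not pass (-0.29, 95% interval -0.80 to 0.23, adjusted p = 0.77). The call in Balb/c mice was lost without any of 8 single arrays, namely replicates 2 and 3 of the C57BL/6 sham and Balb/c irradiated groups and replicates 1 and 2 of the C57BL/6 irradiated and Balb/c sham groups (adjusted p 0.0518 to 0.144). With the 3′ minus 5′ signal as a covariate the difference was -0.40 in Balb/c mice (adjusted p = 0.318) and -0.39 in the average (adjusted p = 0.0538). Without both arrays that stand apart it was -0.54 in Balb/c mice (adjusted p = 0.124) and -0.42 in the average (adjusted p = 0.0661).

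Eef2k encodes the calcium and calmodulin-dependent kinase that phosphorylates eEF2 and slows elongation. Its brightest probe set read 11.98, 12.03 and 12.18 in irradiated Balb/c mice, against 12.52, 12.48 and 12.51 in sham Balb/c mice. In C57BL/6 mice it read 11.90, 12.20 and 11.86 after irradiation and 12.43, 12.30 and 12.51 after sham. All 6 irradiated arrays lay below all 6 sham arrays. The difference was -0.44 in Balb/c mice (adjusted p = 0.052) and -0.43 in C57BL/6 mice (adjusted p = 0.0711), and the average fell by 0.43 (SE 0.08, adjusted p = 0.0071). The interaction was -0.01 with a 95% interval of -0.38 to 0.35. The average kept its call in every alternative tried, with adjusted p between 4.94e-04 and 0.0351. The call within a strain appeared without C57BL/6 irradiated replicate 2, with adjusted p = 0.0386 in Balb/c mice and 0.0377 in C57BL/6 mice. In both strains it also appeared with the mean of probe sets, the probe set with the largest interquartile range or a variance trend. In Balb/c mice a filter at 7, quantile normalization or array weights gave it too. The adjusted p in these settings was 0.00873 to 0.0484 in Balb/c mice and 0.00607 to 0.0331 in C57BL/6 mice. At an adjusted p under 0.05 the remaining alternatives left it uncalled within a strain.

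The other 2 probe sets of Eef2k gave larger differences in the same direction. Probe set 1439860_at read 7.72, 7.999 and 7.90 in irradiated and 8.68, 8.93 and 8.77 in sham Balb/c mice. It read 8.10, 8.01 and 8.07 in irradiated and 9.19, 8.80 and 9.40 in sham C57BL/6 mice. In a fit of all 14438 probe sets that passed the filter it fell by 0.92 in Balb/c mice (SE 0.15, adjusted p = 0.00859) and by 1.07 in C57BL/6 mice (SE 0.15, adjusted p = 0.00598). Probe set 1449013_at differed by -0.66 in Balb/c mice (adjusted p = 0.0711) and -0.64 in C57BL/6 mice (adjusted p = 0.0934), and its average fell by 0.65 (adjusted p = 0.011). Of the 100 member probe sets in that fit, 2 were called in Balb/c mice, 1 in C57BL/6 mice and 7 in the average, against 4.95%, 3.08% and 13.5% of all probe sets, and 0 in the interaction, against 0.0485%.

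**Figure D2:**
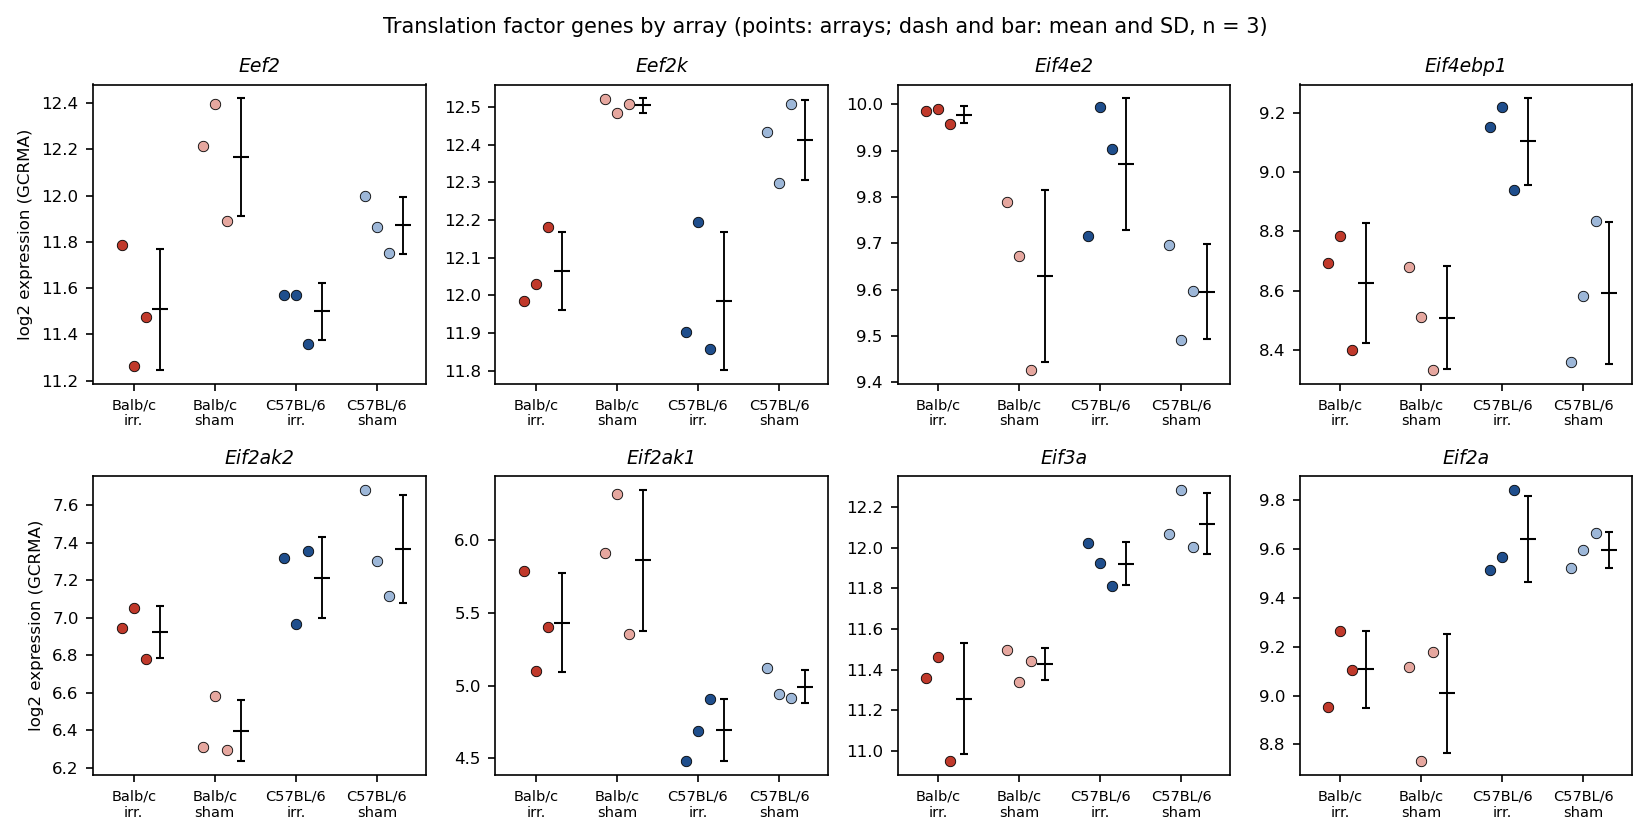
Log2 expression of 8 members on every array, with the mean and SD of each group (n = 3); irr. stands for irradiated, and the vertical scales differ and do not start at 0. Irradiated arrays lie below sham arrays of the same strain for Eef2 and Eef2k, and Balb/c arrays lie below C57BL/6 arrays for Eif3a and Eif2a.

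The eEF1 complex carries charged tRNAs to the ribosome and is recycled by its own exchange factor. Its list, which takes in Eef1e1 by symbol, had 5 members above the filter. None was called on its brightest probe set. In Balb/c mice all 5 differences were below 0, from -0.38 to -0.12, also after both other scalings of the arrays. On the brightest probe sets Eef1e1, which sits in the tRNA synthetase complex and not in eEF1, differed most, by -0.38 (SE 0.15, adjusted p = 0.159). The 5 differences ran from -0.16 to 0.05 in C57BL/6 mice. Eef1d, another of the 5, has a second probe set, 1449506_a_at, which was chosen after its values were seen. It read 11.06, 10.81 and 10.92 in irradiated and 11.51, 11.33 and 11.29 in sham Balb/c mice. Its group means were 10.93 and 11.38 there, and 11.33 and 11.39 in irradiated and sham C57BL/6 mice. The brightest probe set of Eef1d differed by -0.12 in Balb/c mice. Eef1a1, the main tRNA carrier, read 15.28, 15.23 and 15.22 in irradiated and 15.45, 15.33 and 15.39 in sham Balb/c mice, a difference of -0.15 (adjusted p = 0.375), and differed by 0.00 in C57BL/6 mice. Eef1a2, the carrier known from neurons and muscle, differed by -0.17 in Balb/c mice and -0.09 in C57BL/6 mice, with adjusted p = 0.591 and 0.767. The methyltransferases Eef1akmt1 and Eef1akmt2, which modify eEF1A, differed by 0.04 and -0.05 in Balb/c mice and by -0.02 and 0.04 in C57BL/6 mice.

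Among the cap-binding factors 1 of 9 was called, in the average of both strains. Eif4e2 encodes a relative of eIF4E that binds the cap without recruiting eIF4G and so holds translation back. It read 9.99, 9.99 and 9.96 in irradiated Balb/c mice, against 9.79, 9.67 and 9.43 in sham Balb/c mice. It read 9.72, 9.99 and 9.90 in irradiated C57BL/6 mice, against 9.70, 9.49 and 9.60 in sham C57BL/6 mice. The groups did not overlap within either strain. The difference was 0.35 in Balb/c mice (adjusted p = 0.119) and 0.28 in C57BL/6 mice (adjusted p = 0.222), and the average rose by 0.31 (SE 0.09, adjusted p = 0.034). This call rested on single arrays, since leaving out any but replicate 1 of the C57BL/6 sham, C57BL/6 irradiated and Balb/c sham groups gave an adjusted p of 0.0582 to 0.0727. It was also lost without both arrays that stand apart (0.30, adjusted p = 0.107) and with the 3′ minus 5′ covariate (0.32, adjusted p = 0.0742). The second probe set, 1421985_a_at, differed by 0.09 in Balb/c mice and 0.06 in C57BL/6 mice, and the mean of both probe sets gave an average of 0.19 (adjusted p = 0.0995).

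Eif4e itself, the cap-binding protein, differed by 0.20 in Balb/c mice and 0.22 in C57BL/6 mice (adjusted p = 0.502 and 0.449). Its probe set 1450908_at averaged 8.93 in irradiated and 8.89 in sham Balb/c mice. In C57BL/6 mice that probe set averaged 9.39 and 8.85, and the groups did not overlap. A dimmer one, 1450909_at, averaged 4.07 and 4.09 in Balb/c mice and 5.45 and 5.31 in C57BL/6 mice. The helicase genes Eif4a1 and Eif4a2 differed by -0.12 and -0.26 in Balb/c mice and by -0.09 and -0.24 in C57BL/6 mice. The average of Eif4a2 was -0.25 with a 95% interval of -0.47 to -0.04 (adjusted p = 0.103). Eif4b, which stimulates that helicase, differed by -0.42 in Balb/c mice (adjusted p = 0.0853) and 0.02 in C57BL/6 mice. Its 3 irradiated Balb/c arrays, at 9.48, 9.33 and 9.11, lay below the sham ones at 9.88, 9.66 and 9.63. Eif4g2, an eIF4G relative that does not bind eIF4E, differed by 0.15 in Balb/c mice and -0.03 in C57BL/6 mice.

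None of the 3 measured eIF4E inhibitors was called on its brightest probe set. Eif4ebp1, a 4E-binding protein released from eIF4E when mTORC1 phosphorylates it, read 8.69, 8.79 and 8.40 in irradiated and 8.68, 8.51 and 8.33 in sham Balb/c mice. It read 9.15, 9.22 and 8.94 in irradiated and 8.36, 8.58 and 8.84 in sham C57BL/6 mice. The C57BL/6 groups did not overlap and the Balb/c groups did. The difference was 0.12 in Balb/c mice (adjusted p = 0.713) and 0.51 in C57BL/6 mice (SE 0.16, adjusted p = 0.102), and the interaction, -0.39, did not pass (adjusted p = 0.67). Eif4ebp2, the form best known from neurons, differed by -0.02 in Balb/c mice and -0.15 in C57BL/6 mice. Its other probe set, 1436158_at, had the opposite direction in C57BL/6 mice, with means of 7.51 in irradiated and 7.10 in sham mice. In Balb/c mice both means of that probe set were 7.51. Eif4enif1, which takes eIF4E to the nucleus and to P-bodies, differed by -0.15 in Balb/c mice and -0.32 in C57BL/6 mice (adjusted p = 0.196).

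None of the 8 measured genes grouped as loading and recharging eIF2 passed the test for irradiation. One of the 8, Eif2a, differed between the strains, as given below. Eif2s3x, the gamma subunit of eIF2, differed by -0.26 in Balb/c mice and 0.15 in C57BL/6 mice (adjusted p = 0.393 and 0.632). Eif2b5, the catalytic subunit of the exchange factor eIF2B, differed by -0.06 in Balb/c mice and 0.03 in C57BL/6 mice. Eif2d averaged 9.12 in irradiated and 8.98 in sham Balb/c mice, and 8.83 and 9.17 in C57BL/6 mice. Eif2s3y, the Y-linked copy, lay at the bottom of the scale, 2.23, in all 12 arrays of these female mice. Eif2b1 fell just outside the filter, above 5 in 2 arrays, with 4.69, 5.14 and 5.37 in irradiated C57BL/6 mice. Eif2ak1 passed it narrowly, above 5 in 7 arrays with a mean of 5.24. Eif4a3, Eefsec, Eef2kmt and Eef1aknmt were above 5 in no array, and Eif2s1 and Eif4g1 were not analysed here.

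None of the 4 kinases that phosphorylate the alpha subunit of eIF2 passed the test for irradiation in either strain. Eif2ak2 encodes PKR, which is activated by double-stranded RNA and is induced by interferon. It read 6.94, 7.05 and 6.78 in irradiated Balb/c mice, against 6.31, 6.58 and 6.29 in sham Balb/c mice. In C57BL/6 mice it read 7.32, 6.97 and 7.36 after irradiation and 7.68, 7.30 and 7.12 after sham. The Balb/c groups did not overlap and the C57BL/6 groups did. The difference was 0.53 in Balb/c mice (SE 0.17, 95% interval 0.16 to 0.90, adjusted p = 0.0894) and -0.15 in C57BL/6 mice (adjusted p = 0.628). The interaction was 0.68 (SE 0.24, adjusted p = 0.558). Interferon response genes separated irradiated from sham mice in both strains: the summed level of 6 of them was 10.5 to 11.2 in irradiated and 8.27 to 8.93 in sham Balb/c mice, and 11.1 to 11.8 in irradiated and 9.74 to 10.3 in sham C57BL/6 mice. Eif2ak1, the heme-regulated kinase, differed by -0.43 in Balb/c mice and -0.30 in C57BL/6 mice. Eif2ak3, the kinase PERK of the endoplasmic reticulum, differed by -0.16 in Balb/c mice and 0.09 in C57BL/6 mice. Eif2ak4, the amino acid sensor GCN2, differed by 0.02 in Balb/c mice and -0.46 in C57BL/6 mice (adjusted p = 0.255).

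The scaffold eIF3 had 11 members above the filter and none was called for irradiation on its brightest probe set. In Balb/c mice 10 of the 11 differences were below 0, with a median of -0.23, and they kept that split after both other scalings. The medians were then -0.22 and -0.23, beside -0.03 and -0.05 over all genes. Neither scaling adjusts for the 3′ minus 5′ signal. In C57BL/6 mice 7 of 11 were above 0 with a median of 0.01, and 5 of 11 after either scaling. Eif3d, a subunit that can itself bind caps, read 9.67, 9.48 and 9.90 in irradiated and 10.10, 10.22 and 10.12 in sham Balb/c mice. That difference was -0.46 (SE 0.15, adjusted p = 0.105), and -0.36 without Balb/c irradiated replicate 2 (adjusted p = 0.261). Eif3l and Eif3k, chosen after their values were seen, differed by -0.46 and -0.45 in Balb/c mice (adjusted p = 0.14 and 0.205). Their irradiated Balb/c arrays read 9.69, 9.01 and 9.67 for Eif3l and 9.68, 8.97 and 9.61 for Eif3k, and the low array in each was replicate 2, the one with the highest 3′ minus 5′ signal. In the fit of probe sets, a dimmer one of Eif3a, 1416661_at, and one of Eif3c, 1415859_at, fell in the average by 0.61 and 0.50 (adjusted p = 0.0312 and 0.0216), while their brightest probe sets differed by -0.18 and -0.18; Eif3c was also chosen after its values were seen.

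A difference in response between the strains did not pass for any member: 0 of 53 were called in the interaction, where 7 of all genes did (0.0768%), and 3 members had an unadjusted p under 0.05, against 8.06% of all genes. Those 3 were Eif2ak2, given above, Eif4b and Eif1ad. Eif1ad, a protein with an eIF1A-like domain, read 7.26, 7.01 and 6.59 in irradiated and 7.85, 7.50 and 7.31 in sham Balb/c mice. It read 7.61, 7.51 and 7.93 in irradiated and 7.17, 7.35 and 7.62 in sham C57BL/6 mice. The groups did not overlap in Balb/c mice and overlapped in C57BL/6 mice. The interaction of Eif1ad was -0.90 (95% interval -1.55 to -0.25, adjusted p = 0.534), and -0.14 on its second probe set. Eif1a and Eif1ax were not called in any contrast. Eif1a averaged 9.08 in irradiated and 8.89 in sham Balb/c mice, and 8.96 and 8.79 in C57BL/6 mice. Eif1ax averaged 10.10 and 10.08 in Balb/c mice, and 10.28 and 9.94 in C57BL/6 mice. Of the 5 Eif5 and Eif6 members, Eif6, Eif5a and Eif5b had opposite signs in the 2 strains, and no interaction passed. The figures head these 5 as subunit joining, a role given here to Eif5, Eif5b and Eif6 only. Eif6, which keeps the large subunit from joining too early, differed by -0.31 in Balb/c mice and 0.34 in C57BL/6 mice (interaction -0.65, adjusted p = 0.627). Eif5a, the factor that carries hypusine, differed by -0.09 in Balb/c mice and 0.37 in C57BL/6 mice (interaction -0.46, adjusted p = 0.656). Eif5b, the GTPase that joins the subunits, differed by -0.15 in Balb/c mice and 0.41 in C57BL/6 mice. Eif5a2 differed by -0.28 in Balb/c mice and -0.43 in C57BL/6 mice (adjusted p = 0.473 and 0.265), and Eif5, which was chosen after its values were seen, by 0.00 and -0.06. The values of Eif5 are those of its brightest probe set. Its probe set 1456256_at averaged 9.17 in irradiated and 9.56 in sham Balb/c mice, and 9.11 and 9.64 in C57BL/6 mice. Probe set 1454664_a_at averaged 11.6 and 11.8 in Balb/c mice and 11.5 and 11.8 in C57BL/6 mice. The others, 1433631_at and 1454663_at, averaged 9.04 and 9.12, and 9.54 and 9.53, in Balb/c mice. In C57BL/6 mice they averaged 8.85 and 8.85, and 9.57 and 9.38.

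Other genes of protein synthesis, outside the family, were read from fixed lists of 86 genes, of which 63 passed the filter. In Balb/c mice 0 of these rose and 3 fell, in C57BL/6 mice 1 rose and 1 fell, and in the average 1 rose and 9 fell, beside 6.15%, 3.67% and 15.9% of all genes in either direction. Rptor, the mTORC1 subunit that selects its substrates, read 7.79, 7.49 and 7.58 in irradiated and 8.36, 8.44 and 8.26 in sham Balb/c mice. It read 7.68, 7.95 and 7.69 in irradiated and 8.40, 8.33 and 8.35 in sham C57BL/6 mice. Every irradiated array lay below every sham array. Rptor fell by 0.74 in Balb/c mice (adjusted p = 0.00609) and by 0.59 in C57BL/6 mice (adjusted p = 0.0239). Gspt1, the release factor eRF3a, fell by 0.74 in Balb/c mice (adjusted p = 0.00862). Aars, the alanyl-tRNA synthetase, fell by 0.71 in Balb/c mice (adjusted p = 0.0115). Farsb, a subunit of the phenylalanyl-tRNA synthetase, rose by 0.70 in C57BL/6 mice (adjusted p = 0.015). In the average, Ppp1r15a, the stress-induced subunit of the eIF2 alpha phosphatase, fell by 0.87 (adjusted p = 0.0234), Mknk2, a kinase of eIF4E, by 0.51, and Gcn1, the partner of GCN2, by 0.50. Paip1 and Larp1, partners of the poly(A) tail and its binding protein, fell by 0.48 and 0.26, and Abcf1, an eIF2-binding ATPase, by 0.39.

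Balb/c mice were compared with C57BL/6 mice within each treatment. In irradiated mice 2 of 53 members differed, against 8.97% of all genes: Eif3a and Eif2a, both lower in Balb/c mice, as were 4.59% of all genes. In sham mice 4 of 53 differed, against 10.5% of all genes: Eif2ak1 was higher in Balb/c mice, and Eif2ak2, Eif3a and Eif2a were lower, where 5.22% of all genes were higher and 5.24% lower. An unadjusted p was under 0.05 for 10 members in irradiated and 8 in sham mice (22.5% and 22.8% of all genes), and the arrays did not overlap for 15 and 13 (27.4% and 28.5%). With the replicate number as a block, 1 of 53 differed in irradiated mice, Eif3a. The median member differed by -0.12 in irradiated mice and 0.05 in sham mice, beside 0.02 and 0.04 over all genes. These comparisons use the same arrays as those of irradiation, so a group that reads high or low enters both.

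Of the eIF2 kinases, Eif2ak2 was lower in sham Balb/c mice, at 6.31, 6.58 and 6.29, than in sham C57BL/6 mice, at 7.68, 7.30 and 7.12. The groups did not overlap, and the difference was -0.97 (SE 0.17, adjusted p = 0.0036), a change of -48.9% on the linear scale. It kept its call in every alternative tried, with adjusted p from 0.002 to 0.0207. In irradiated mice the groups overlapped and the difference was -0.29 (95% interval -0.66 to 0.08, adjusted p = 0.358). The interferon response list was also lower in sham Balb/c than in sham C57BL/6 mice, with summed levels of 8.27 to 8.93 and 9.74 to 10.3, and its part in the difference of Eif2ak2 was not tested.

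Eif2ak1 read 5.79, 5.10 and 5.41 in irradiated Balb/c mice, against 4.48, 4.69 and 4.91 in irradiated C57BL/6 mice. It read 5.91, 6.32 and 5.35 in sham Balb/c mice, against 5.12, 4.94 and 4.91 in sham C57BL/6 mice. Within each treatment every Balb/c array lay above every C57BL/6 array, all close to the filter, which Eif2ak1 passed through its 6 Balb/c arrays and 1 C57BL/6 array. The difference was 0.74 in irradiated mice (adjusted p = 0.0886) and 0.87 in sham mice (SE 0.24, adjusted p = 0.0424). The call in sham mice was lost without any array except C57BL/6 irradiated replicate 3, Balb/c sham replicate 3 and Balb/c irradiated replicates 1 and 2 (adjusted p 0.0521 to 0.143), with no filter (0.136), with quantile normalization (0.102) and in the fit of the compared groups alone (0.0868). In irradiated mice a call appeared without Balb/c sham replicate 3 (adjusted p = 0.0443) and with the 3′ minus 5′ covariate (1.20, adjusted p = 0.0296). Eif2ak4 differed by -0.13 in irradiated mice and -0.61 in sham mice (SE 0.22, adjusted p = 0.118), and Eif2ak3 by -0.04 and 0.21.

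Eif3a, the largest subunit of eIF3, read 11.36, 11.46 and 10.95 in irradiated Balb/c mice, against 12.02, 11.92 and 11.81 in irradiated C57BL/6 mice. It read 11.50, 11.34 and 11.44 in sham Balb/c mice, against 12.07, 12.28 and 12.00 in sham C57BL/6 mice. All 6 Balb/c arrays lay below all 6 C57BL/6 arrays. The difference was -0.66 in irradiated mice (SE 0.14, adjusted p = 0.0152) and -0.69 in sham mice (SE 0.14, adjusted p = 0.0104). The call in irradiated mice was lost without C57BL/6 irradiated replicate 1 (-0.61, adjusted p = 0.0553), with the 3′ minus 5′ covariate (-0.72, adjusted p = 0.0926) and in the fit of the compared groups alone (-0.66, adjusted p = 0.0744). The probe sets of Eif3a did not give the same size. Probe set 1416659_at differed by -0.02 in irradiated and -0.08 in sham mice (adjusted p = 0.949 and 0.717), and 1416661_at by -0.37 and -0.57. With the mean of the 3 probe sets the differences were -0.35 in irradiated mice (adjusted p = 0.156) and -0.45 in sham mice (adjusted p = 0.0621).

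**Figure D3:**
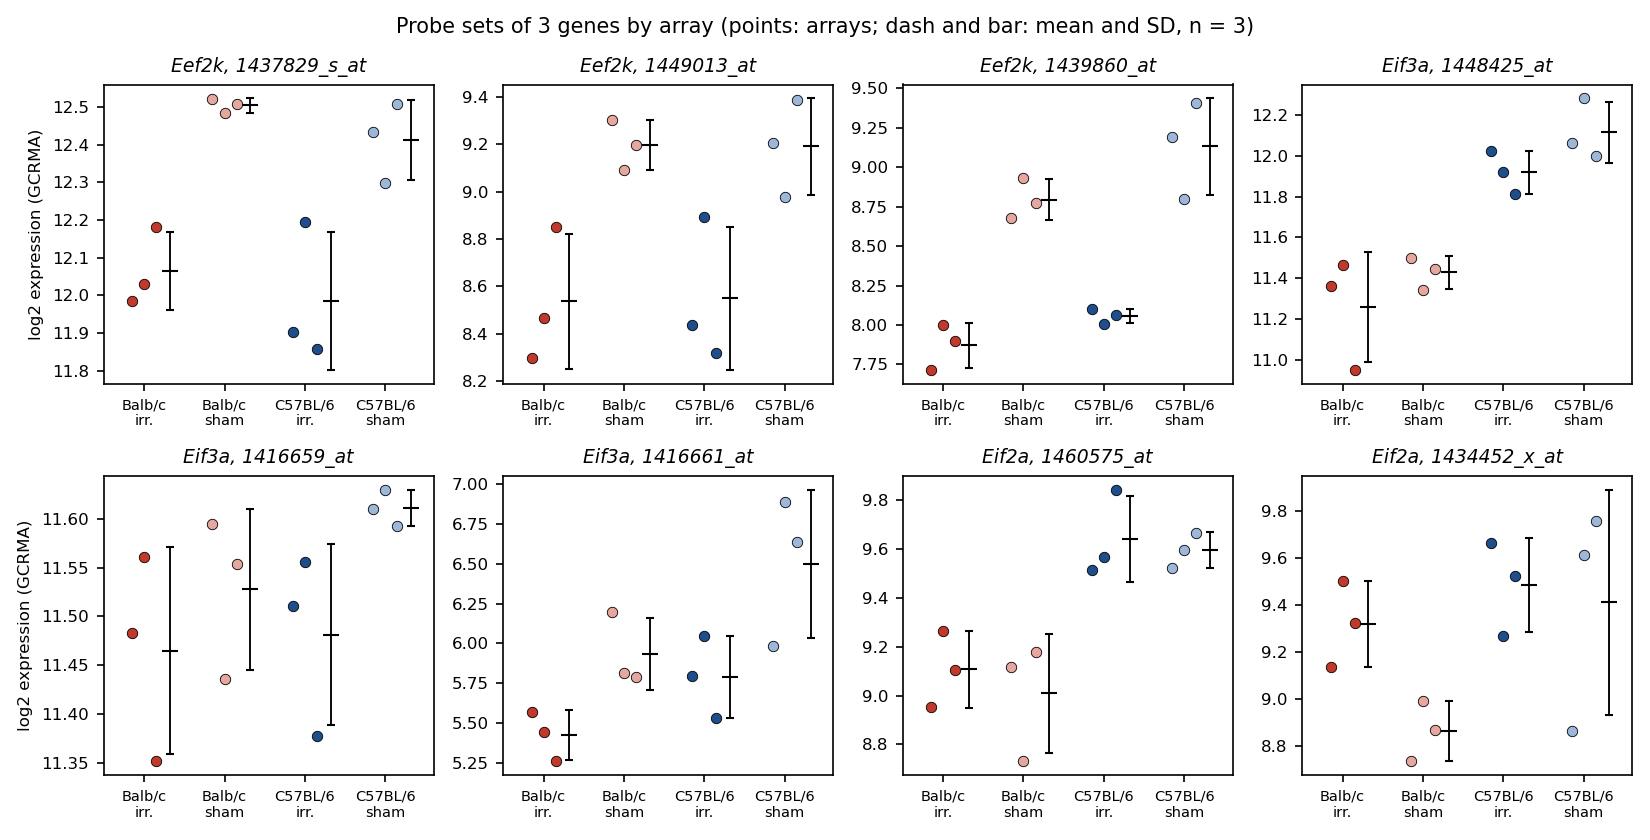
Log2 expression of the probe sets of Eef2k, Eif3a and Eif2a on every array, with the mean and SD of each group (n = 3); irr. stands for irradiated, and the vertical scales differ and do not start at 0. The 3 probe sets of Eef2k separate irradiated from sham mice within each strain, whereas 1416659_at of Eif3a does not separate the strains as 1448425_at does.

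Eif2a encodes an initiator tRNA carrier that works apart from the eIF2 complex. It read 8.95, 9.27 and 9.11 in irradiated Balb/c mice, against 9.51, 9.57 and 9.84 in irradiated C57BL/6 mice. It read 9.12, 8.73 and 9.18 in sham Balb/c mice, against 9.52, 9.60 and 9.67 in sham C57BL/6 mice. All 6 Balb/c arrays lay below all 6 C57BL/6 arrays. The difference was -0.53 in irradiated mice (SE 0.15, adjusted p = 0.0474, and 0.0546 with the replicate number as a block) and -0.59 in sham mice (SE 0.15, adjusted p = 0.0272). The call in sham mice was lost without replicate 2 or 3 of the C57BL/6 sham group or replicate 1 or 2 of the Balb/c sham group (adjusted p 0.0506 to 0.0979). The call in irradiated mice was lost without any array but Balb/c sham replicate 2 (adjusted p 0.0527 to 0.153), without both arrays that stand apart (-0.51, adjusted p = 0.14) and with the 3′ minus 5′ covariate (-0.72, adjusted p = 0.0718). Its other probe set, 1434452_x_at, differed by -0.16 in irradiated and -0.55 in sham mice (adjusted p = 0.721 and 0.163).

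**Figure D4:**
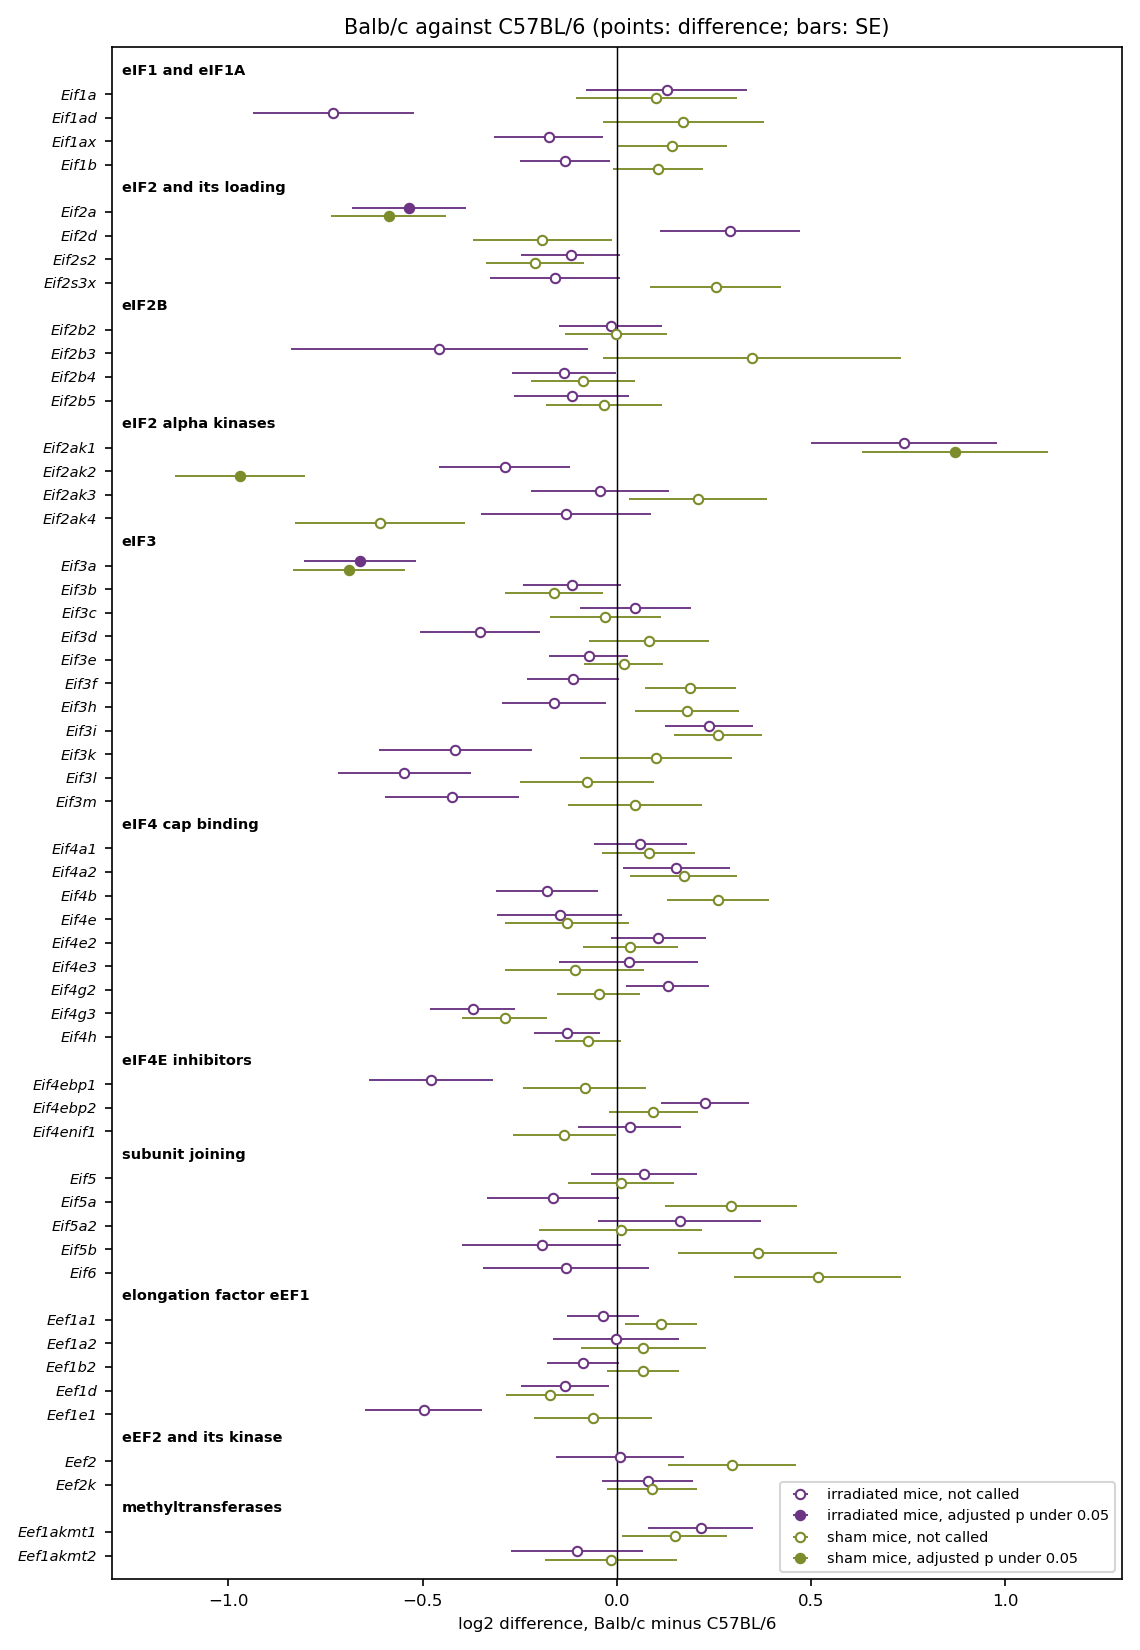
Log2 difference of Balb/c minus C57BL/6 mice for the 53 members that passed the filter, grouped by role, with irradiated mice in purple and sham mice in green; bars are standard errors from limma. Filled points passed an adjusted p of 0.05, which Eif3a and Eif2a did in both treatments and Eif2ak1 and Eif2ak2 in sham mice.

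The remaining strain differences of the family did not pass. Eif3i, another subunit of eIF3, averaged 13.52 in Balb/c and 13.28 in C57BL/6 irradiated mice, and 13.51 and 13.25 in sham mice. All its Balb/c arrays lay above all its C57BL/6 arrays. On its probe set with the largest interquartile range the difference in sham mice was 0.44 (adjusted p = 0.0477). Eif4g3, an eIF4G scaffold, differed by -0.37 in irradiated mice (adjusted p = 0.0634) and -0.29 in sham mice (adjusted p = 0.139), and its arrays did not overlap in either. Eif1ad differed by -0.73 in irradiated mice (adjusted p = 0.0535) and 0.17 in sham mice, and without Balb/c irradiated replicate 1 the first was -0.88 (adjusted p = 0.0334). Eef1e1 differed by -0.50 in irradiated mice (adjusted p = 0.0702) and -0.06 in sham mice, and without C57BL/6 irradiated replicate 1 the first was -0.65 (adjusted p = 0.0235). Eif4ebp1 differed by -0.48 in irradiated mice (adjusted p = 0.0954) and -0.08 in sham mice. Eif6 differed by -0.13 in irradiated mice and 0.52 in sham mice (adjusted p = 0.177). Eef2 and Eef2k differed by 0.01 and 0.08 in irradiated mice and by 0.30 and 0.09 in sham mice. In irradiated mice 11 members had all Balb/c arrays below all C57BL/6 arrays and 4 had them above, where 12.3% and 15.1% of all genes did.

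A dim probe set of Eif2s2, the beta subunit of eIF2, differed more than any brightest one and was chosen after its values were seen. Probe set 1441023_at read 4.87, 5.87 and 5.81 in irradiated Balb/c mice, against 7.50, 7.09 and 7.47 in irradiated C57BL/6 mice. It read 5.79, 4.59 and 5.74 in sham Balb/c mice, against 6.24, 7.08 and 7.34 in sham C57BL/6 mice. All Balb/c arrays lay below all C57BL/6 arrays. It differed by -1.84 in irradiated mice (SE 0.39, adjusted p = 0.0125) and -1.51 in sham mice (adjusted p = 0.0314), while the brightest probe set of Eif2s2 differed by -0.12 and -0.21. Of the 100 member probe sets, 2 were called in irradiated and 6 in sham mice, against 8.65% and 9.77% of all probe sets.

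Of the other translation genes, Gcn1 differed between the strains in both treatments. It read 8.32, 8.09 and 8.11 in irradiated Balb/c mice, against 6.63, 6.75 and 6.40 in irradiated C57BL/6 mice. It read 8.67, 8.87 and 8.27 in sham Balb/c mice, against 7.35, 7.03 and 7.09 in sham C57BL/6 mice. No array of one strain reached the range of the other, and Gcn1 was higher in Balb/c mice by 1.58 (adjusted p = 1.45e-04) in irradiated and by 1.45 (adjusted p = 2.28e-04) in sham mice. GCN1 is needed for the activation of GCN2 by uncharged tRNA. Impact, which holds that activation back, was higher by 0.55 in irradiated Balb/c mice (adjusted p = 0.0104). No other gene of these lists was called between the strains.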

How the data were processed

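RNA of sorted CD11b+ cells from 12 mice was hybridised to 1 expression array per mouse. The values used are log2 values of 45101 probe sets deposited by the authors; per the submitters' processing notes GCRMA was used, with its version not given in the sources used here. GCRMA quantile-normalizes arrays, so a change shared by all genes would not be seen, and dim probe sets pile up at the bottom of the scale. Of the probe sets, 34945 had 1 gene symbol, 932 had several, 9160 had none and 64 were controls; those with several symbols were not used, among them 8 that hold a member's symbol with another. Arrays have no read depth, and their number limits the precision. No column of other samples (0) was present.

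Each gene was read from its brightest probe set by the mean of the 12 arrays, and stayed in if 3 or more arrays were above 5, which left 9120 of 18193 genes. limma 3.58.1 in R 4.3.3 was fitted to all 12 arrays with 1 mean per group (8 residual degrees of freedom), with Benjamini-Hochberg adjustment over all genes tested. Contrasts were irradiation within each strain, its average over strains, the interaction, and strain within each treatment, and they share arrays. A second fit used all 14438 probe sets above the filter. In it 26 members had several probe sets. For irradiation, all probe sets of a member shared a sign in 16 in Balb/c mice, 14 in C57BL/6 mice and 14 in the average. They did so in 11 for the interaction, and between strains in 12 in sham and 15 in irradiated mice. Differences of members are those of the brightest probe set unless another is named, and their sign often did not hold across probe sets. The method was tested on simulated data. Alternatives changed the filter, scaling, choice of probe set, variance model, array weights, samples in the fit, replicate block, threshold and RNA quality covariate, and left out each array. Replicate numbers come from the labels. Same-numbered arrays of irradiated Balb/c and irradiated C57BL/6 mice deviated together (correlations 0.217, 0.447 and 0.323), which pairs them by number, whereas over all 12 same-numbered pairs the correlation ran from -0.05 to 0.45 and 5 were over 0.1.

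Named members were those called, in each contrast the 5 of lowest p on either side of 0, and a set of central factors; other translation genes were named where called. The members and lists were chosen with earlier results of these data known. Promoter sequences are RefSeq's on GRCm38.p6.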

Additional observations from a re-analysis of the deposited data

How the results depend on the processing

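The number of members called moved with the processing more than their medians, which stayed between -0.17 and -0.06 for irradiation in Balb/c mice, -0.03 and 0.02 in C57BL/6 mice and -0.10 and -0.05 in the average. Between strains they stayed between -0.13 and -0.02 in irradiated mice and between -0.01 and 0.07 in sham mice, so the sign in sham mice was not kept. In C57BL/6 mice 1 member was called instead of 0 with the mean of all probe sets, the probe set with the largest interquartile range, a variance trend or an adjusted p under 0.10. In Balb/c mice 0 were called instead of 1 with no filter, with the compared groups alone or with the 3′ minus 5′ covariate. There 2 were called with a filter at 7, quantile normalization, the mean of probe sets, the widest-ranging probe set, a variance trend or array weights, and 4 at an adjusted p under 0.10. In the average 1 was called instead of 3 with the covariate. Between strains in sham mice 2 were called instead of 4 with no filter or with the compared groups alone. Between strains in irradiated mice 1 was called instead of 2 with median-centred arrays, the mean of probe sets, array weights or the covariate. That 1 was Eif1ad with the mean of probe sets and Eif2ak1 with the covariate, where neither Eif3a nor Eif2a was called. There 0 were called with the compared groups alone, and 8 at an adjusted p under 0.10. Leaving out both arrays that stand apart, an alternative chosen after seeing the data, gave 0 in Balb/c mice, 1 in the average and 1 between strains in irradiated mice. Leaving out 1 array at a time gave 0 to 1 members in C57BL/6 mice, 0 to 2 in Balb/c mice, 2 to 3 in the average, 2 to 4 between strains in sham mice and 1 to 2 in irradiated mice. The leave-out call of Eif5a2, a homologue of Eif5a, appeared in the average without Balb/c sham replicate 2 (-0.47, adjusted p = 0.044). In the interaction 0 members were called in every alternative run. The cause of these moves was not tested.

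With the replicate number as a block, 1 member was called between strains in irradiated mice, 4 in sham mice and 2 in the average of irradiation. The block took Eif4e2 in the average to an adjusted p of 0.0529, Eif2ak1 in sham mice to 0.0649 and Eif2ak4 in sham mice to 0.0455. Outside irradiated mice the samples share only a number: 0 of 6 arrays correlated best with their own number in C57BL/6 mice, 4 of 6 in Balb/c mice and 3 of 6 in sham mice, against 6 of 6 in irradiated mice. The counts over all genes also moved, in Balb/c mice to 104 with the covariate and 1076 at the wider threshold, against 561, and in C57BL/6 mice to 96 with the compared groups alone and 725 at the wider threshold, against 335. A fit of the compared groups alone was not run for the average and the interaction, which use all groups. No named member changed sign after being called. The 3 arrays per group and dim probe sets near the filter limit what could be detected.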
